A study of Homo sapiens with 4 samples.

Results

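The transcripts described here encode the inhibitors of cyclin-dependent kinases (CDKs) and the cyclins that govern the G1 phase of the cell cycle. They were chosen by name: CDKN1A, CDKN1B and CDKN1C of the CIP/KIP family, CDKN2C and CDKN2D of the INK4 family, the D-type cyclins CCND1, CCND2 and CCND3, and the E-type cyclins CCNE1 and CCNE2. The platform annotation named an array feature for 9 of these 10 genes, each with 1 feature, among 17687 genes tested in all. CDKN2C was not analysed here. The cells were NB4-R4, derived from NB4, a human line of acute promyelocytic leukaemia, and resistant to all-trans retinoic acid (ATRA), under which such leukaemic promyelocytes normally mature. RNA from live cells was measured on 4 Affymetrix arrays, 2 from cultures given the vehicle DMSO and 2 from cultures given MK-8776 at 4 µM, all after 96 h. MK-8776 is a small-molecule inhibitor of CHK1, a kinase that restrains the cell cycle when DNA replication is disturbed. The comparison asks how the transcripts of resistant cells differ after exposure to the inhibitor. Retinoic acid was not among the treatments of these arrays, and 1 resistant line at 1 dose and 1 time limits what the comparison covers.

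In G1, D-type cyclins bind CDK4 and CDK6, and E-type cyclins bind CDK2. These kinases phosphorylate the retinoblastoma protein, which releases E2F factors to transcribe genes for DNA synthesis. INK4 proteins bind CDK4 and CDK6 alone, whereas CIP/KIP proteins bind cyclin-CDK complexes and block CDK2 in particular. When myeloid progenitors mature they leave the cell cycle, and CDK inhibitors commonly accumulate as they do so. Cell number and RNA per cell cannot be told apart in bulk RNA of this kind, and neither can cell cycle phase and transcription.

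The values are RMA expression on the log2 scale. Changes are log2 differences, MK-8776 minus DMSO, with a standard error (SE), a 95% interval and a Benjamini-Hochberg adjusted p from limma, a linear model that borrows information on the spread from all genes. An adjusted p under 0.05 counted as a change. The correlation across genes was 0.993 between the arrays of each group and 0.981 to 0.989 between arrays of different groups. In DMSO, 5 of 6 measured promyelocyte markers lay above the median of all values (5.77), led by MPO, the myeloperoxidase gene, at 16.18, while KIT lay under the lower quartile (3.97). Of the promyelocyte markers, CFD was close to that median, at 5.775. In DMSO, CSF3R alone of 5 late neutrophil markers lay above that median. So did 2 of 3 T cell markers and 1 each of 3 B cell, 3 erythroid, 3 megakaryocyte and 4 monocyte and macrophage markers. The highest signals of these were CD79A of B cells at 9.69, ITGA2B of megakaryocytes at 9.19 and CD3E of T cells at 8.135. Signals of different genes come from different probes, so they give no order of expression among the markers. CHEK1, which encodes CHK1, read 10.90 and 11.13 in the DMSO arrays and 10.08 and 10.33 after the inhibitor. Its change of -0.81 (SE 0.22) did not pass (adjusted p = 0.0883, limma).

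After MK-8776, the transcript of the CDK inhibitor p21 rose 3.46-fold and that of cyclin D1 fell to 0.251 of its DMSO level. The remaining 7 transcripts did not pass the threshold. Of the 9 measured genes, 1 rose, where 1.66% of all genes did, and 1 fell, where 2.02% of all genes did, for 3.69% in either direction. At an unadjusted p under 0.05 there were 5 of the 9, against 18.8% of all genes. The groups did not overlap in 8 of the 9, 5 with MK-8776 higher and 3 with MK-8776 lower, against 48.2% of all genes. On average 5 of the 9 were higher after MK-8776, 2 of the 4 inhibitors and 3 of the 5 cyclins, against 50.6% of all genes. The median absolute change was 0.68 over the 9 genes and 0.245 over all genes.

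**Figure D1:**
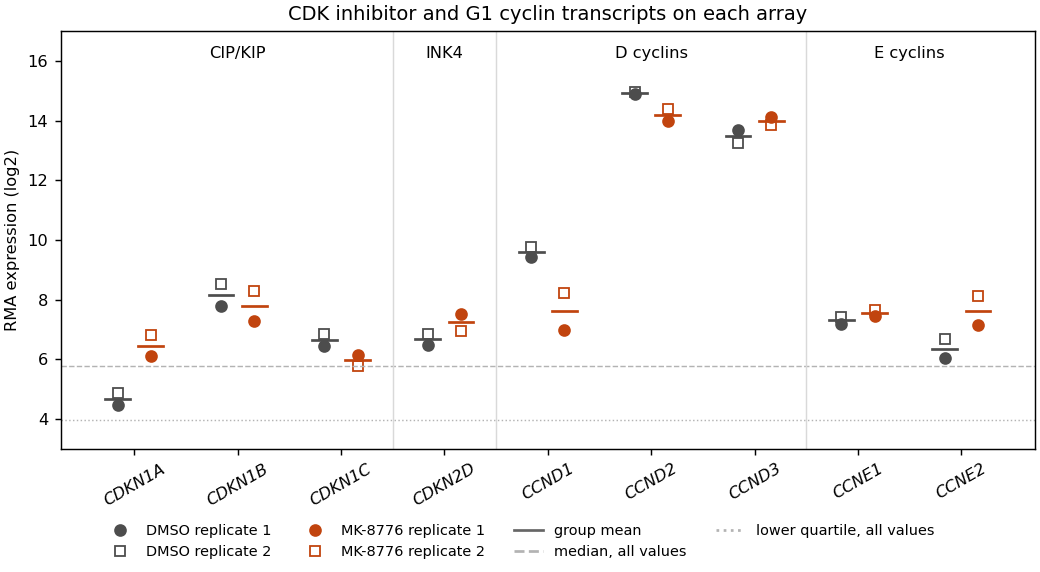
RMA expression (log2) of the 9 measured genes on each array, with DMSO in grey and MK-8776 in orange, replicate 1 as filled circles, replicate 2 as open squares and group means as bars. Grey lines mark the median (5.77) and the lower quartile (3.97) of all values. CDKN1A and CCND1 show the widest gaps between the groups, 1.24 and 1.21, and in CDKN1B the groups overlap. Levels of different genes come from different probes and have no common scale.

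CDKN1A encodes p21, a CIP/KIP protein that binds cyclin-CDK complexes and halts the cycle, and is a classical target of p53. The gene lies on chromosome 6, 36676463 to 36687332 (GRCh38). It measured 4.46 and 4.85 in the DMSO arrays and 6.09 and 6.80 in the MK-8776 arrays. The DMSO values lay under the median of all values (5.77) and above the lower quartile (3.97), with no detection call to judge them. Both MK-8776 arrays lay above both DMSO arrays, with a gap of 1.24 between the nearest pair. The mean rose from 4.655 ± 0.28 to 6.445 ± 0.50 (SD, n = 2), a change of 1.79 (SE 0.28, 95% interval 1.14 to 2.44, adjusted p = 0.0164, limma). Only 0.769% of all genes had a larger absolute change.

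The windows from 250 bases before to 50 after a start site are shown for CDKN1A, the inhibitor that rose, and for CDKN1B, its relative that did not pass. For CDKN1A the start site used, 36678714, lies inside the gene span given above. Bases outside the window were not searched, whether inside that span or upstream of it. They are RefSeq sequences of GRCh38.p14, chr6:36678464-36678763 and chr12:12717118-12717417, both on the plus strand. Capitals mark the GC box, GGGCGG or its reverse complement, a motif that SP1-type factors bind and that the p21 promoter is known for.
CDKN1A: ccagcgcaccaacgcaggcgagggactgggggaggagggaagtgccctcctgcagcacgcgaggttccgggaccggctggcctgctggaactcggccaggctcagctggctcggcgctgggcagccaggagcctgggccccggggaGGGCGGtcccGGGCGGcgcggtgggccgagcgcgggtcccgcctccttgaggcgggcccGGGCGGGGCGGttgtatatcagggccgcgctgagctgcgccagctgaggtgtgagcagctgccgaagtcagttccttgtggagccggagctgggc
CDKN1B: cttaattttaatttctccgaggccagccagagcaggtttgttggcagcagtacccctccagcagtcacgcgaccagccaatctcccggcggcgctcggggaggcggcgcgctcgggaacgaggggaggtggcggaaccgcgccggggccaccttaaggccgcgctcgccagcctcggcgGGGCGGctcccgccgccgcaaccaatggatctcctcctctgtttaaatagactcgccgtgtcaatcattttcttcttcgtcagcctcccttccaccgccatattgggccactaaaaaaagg
The CDKN1A window held 4 GC boxes, starting at -104, -94, -45 and -40 from the start site, of which the last pair shares a base. The CDKN1B window held 1, at -71. Genes that did not pass also held several: the CCNE1 window 7, the CDKN2D window 3 and the 3 windows of CCND3 5, 4 and 0. Of 35116 RefSeq promoter windows of this length, 45.0% held at least 1 GC box, so a match is common. The E2F motifs TTTCCCGC, TTTGGCGC, TTTCGCGC and TTTGCCGC occurred in 3.31% of windows on either strand, the cell cycle element letters TTTGAA and TTCGAA in 16.4%, and the E-box CACGTG in 7.26%. None of these other motifs lay in the windows of the 5 measured genes with an entry, CDKN1A, CDKN1B, CDKN2D, CCND3 and CCNE1. These matches describe letters in a window and no binding was measured.

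CDKN1B encodes p27, the CIP/KIP inhibitor that holds CDK2 inactive in resting cells and is removed by the SCF ligase through SKP2 and CKS1B (chromosome 12, 12717368 to 12722369). It measured 7.79 and 8.53 in DMSO and 7.27 and 8.27 in MK-8776. The groups overlapped, and the arrays within each group lay further apart than the group means did. The change was -0.39 (SE 0.37, adjusted p = 0.642, limma), and its 95% interval ran from -1.23 to 0.45, so neither a halving nor a small rise is outside it. Without MK-8776 replicate 1 the change turned to 0.11.

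CDKN1C encodes p57, a CIP/KIP inhibitor expressed from the maternal allele in most tissues (chromosome 11, 2883218 to 2885775). It measured 6.45 and 6.83 in DMSO and 6.15 and 5.77 in MK-8776. Both treated arrays lay below both controls by at least 0.30. The change of -0.68 (SE 0.24, 95% interval -1.23 to -0.13) did not pass (adjusted p = 0.172, limma). The values of the CIP/KIP transcripts therefore lay on both sides of 0, with p21 higher and p27 and p57 lower on average.

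CDKN2D encodes p19, an INK4 inhibitor of CDK4 and CDK6 (chromosome 19, 10566460 to 10568979). It measured 6.49 and 6.83 in DMSO and 7.51 and 6.95 in MK-8776. The groups were separated by 0.12, less than the spread within either. The change was 0.57 (SE 0.26, 95% interval -0.02 to 1.16, adjusted p = 0.280, limma). The INK4 genes CDKN2A and CDKN2B, named here for their role, had changes of 0.10 and -0.11 that did not pass (adjusted p = 0.905 and 0.838, limma). CDKN2A measured 3.475 in DMSO, under the lower quartile of all values, and CDKN2B 5.16.

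CCND1 encodes cyclin D1, a mitogen-responsive partner of CDK4 and CDK6 (chromosome 11, 69641156 to 69654474). It measured 9.43 and 9.76 in DMSO and 6.98 and 8.22 in MK-8776. The treated arrays both lay below the controls, with a gap of 1.21, and differed from each other by 1.24. The mean went from 9.595 ± 0.23 to 7.60 ± 0.88 (SD, n = 2), a change of -1.995 (SE 0.37, 95% interval -2.85 to -1.14, adjusted p = 0.0291, limma). A larger absolute change was seen in 0.503% of all genes, and a larger SD between the MK-8776 arrays in 0.486%. MK-8776 replicate 1 carried more of the fall: the change was -1.375 without it and -2.615 without MK-8776 replicate 2.

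With any 1 array left out, the change of CDKN1A stayed between 1.435 and 2.145 and that of CCND1 between -2.615 and -1.375, and neither passed. Such a fit holds a group of 1 array, taken to vary like the other group, and has little power. The adjusted p lay between 0.123 and 0.365 for CDKN1A and between 0.0540 and 0.461 for CCND1, and the unadjusted p between 0.000446 and 0.0120 and between 0.000134 and 0.0309 (limma). These fits called 0 to 34 of all genes, against 652 with 4 arrays, so the lost calls say little about CDKN1A and CCND1 themselves. With 2 arrays in each group the smallest two-sided p of an exact permutation test is 0.333, so it cannot judge a single gene.

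CCND2 encodes cyclin D2, a D-type cyclin prominent in blood cells and a known target of MYC (chromosome 12, 4273762 to 4305353). It measured 14.89 and 14.96 in DMSO and 13.99 and 14.38 in MK-8776. Both treated arrays lay at least 0.51 below the controls, and the change was -0.74 (SE 0.22, 95% interval -1.25 to -0.23, adjusted p = 0.120, limma). With a variance that follows the level it fell past the threshold (adjusted p = 0.0123, or 0.0133 with robust estimation, limma).

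CCND3 encodes cyclin D3, a D-type cyclin widely expressed in blood cells (chromosome 6, 41934933 to 42050035). It measured 13.69 and 13.25 in DMSO and 14.13 and 13.84 in MK-8776. The treated arrays lay above the controls by 0.15 or more, less than the difference between the controls. The change was 0.515 (SE 0.24, 95% interval -0.03 to 1.06, adjusted p = 0.293, limma). Within the D-type cyclins, CCND1 alone passed the threshold, CCND2 was lower and CCND3 higher on average. Whether these 3 changes differ from one another was not tested.

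**Figure D2:**
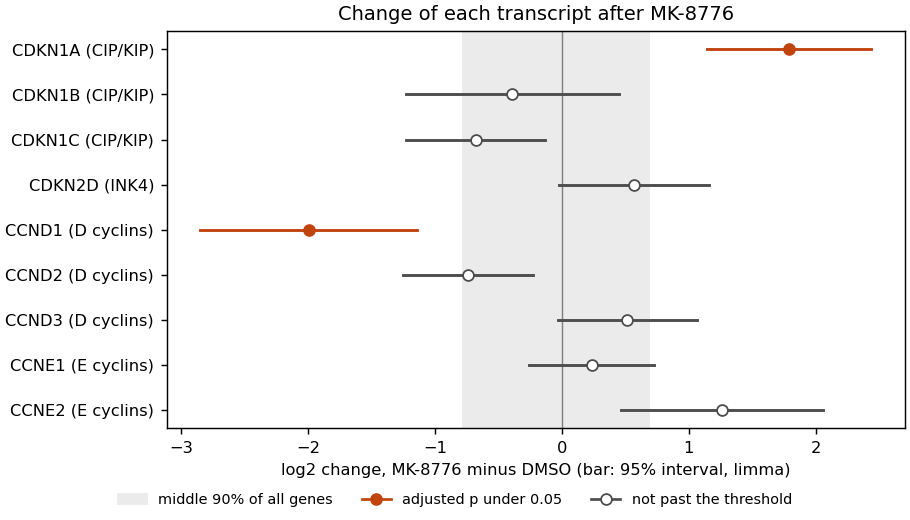
Log2 change of each of the 9 genes, MK-8776 minus DMSO, as points with 95% intervals from limma. Filled orange points mark adjusted p under 0.05 (CDKN1A at 1.79 and CCND1 at -1.995), and the grey band runs from -0.78 to 0.69, the middle 90% of all genes. CCNE2, at 1.265, lies outside the band and did not pass.

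CCNE1 and CCNE2 encode the E-type cyclins, which activate CDK2 at the entry into S phase and are themselves E2F targets. CCNE1 (chromosome 19, 29811991 to 29824312) measured 7.18 and 7.43 in DMSO and 7.44 and 7.64 in MK-8776. The groups were separated by 0.01 only, and the change of 0.235 (SE 0.22, 95% interval -0.26 to 0.73) did not pass (adjusted p = 0.633, limma). CCNE2, on chromosome 8, measured 6.05 and 6.66 in DMSO and 7.13 and 8.11 in MK-8776. Both treated arrays lay above both controls by at least 0.47. The change of 1.265 (SE 0.35, 95% interval 0.47 to 2.06) missed the threshold (adjusted p = 0.0934, limma), also under each alternative setting that was run, where the lowest adjusted p was 0.0556. The MK-8776 arrays differed by 0.98 in CCNE2, a spread that 1.92% of all genes exceeded.

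**Figure D3:**
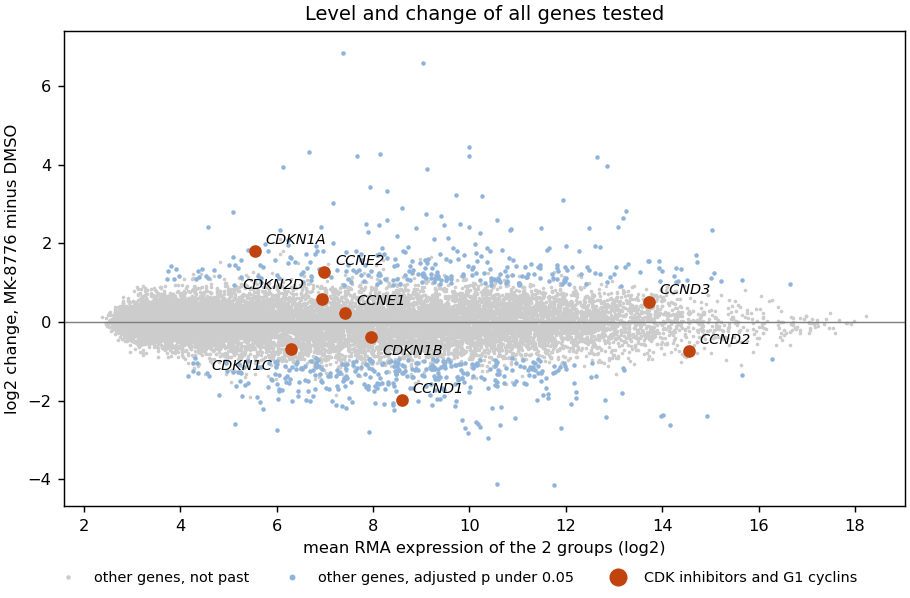
Mean RMA expression of the groups (log2, horizontal) against the log2 change (vertical) for all 17687 genes, with the 9 genes in orange and other genes past the threshold in blue. The horizontal position is the signal of a gene's own probes and ranks no gene against another. CDKN1A at 1.79 and CCND1 at -1.995 are the members past the threshold.

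The partner kinases, named for their role, did not pass. CDK4 read 12.475 on average in the controls and 12.505 in the treated arrays, a difference of 0.03. CDK6, the other partner of the D-type cyclins, had a change of -0.98 (adjusted p = 0.135), and CDK2, the partner of the E-type cyclins, of -0.735 (adjusted p = 0.286, limma). Of the 24 measured genes of the CDK, retinoblastoma and E2F core, 1 rose, 3 fell and 20 did not pass. An unadjusted p under 0.05 (limma) was seen in 7 of the 24, 1 higher and 6 lower. Over all genes, 1.66% rose, 2.02% fell and 18.8% had an unadjusted p under 0.05 (limma). These shares also serve for the list counts below. CDKN3, which encodes a phosphatase of CDK1 and CDK2, fell by 1.67, CDK1, the mitotic kinase gene, fell by 1.59 and E2F5, an E2F of the repressor class, fell by 1.195 (adjusted p = 0.00785, 0.0360 and 0.0400, limma). E2F3, an activator E2F, rose by 1.085 (adjusted p = 0.0324, limma). The core's median change was -0.125, against 0.005 over all genes.

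Of 25 measured genes for the turnover and assembly of CDK inhibitors and G1 cyclins, 0 rose, 3 fell and 22 did not pass in the limma fit, and 8 had an unadjusted p under 0.05. CDC20, an activator of the anaphase-promoting complex, fell by 1.705, CCNF, the gene of an F-box cyclin, fell by 1.70 and CKS1B, the cofactor with which SKP2 recognises p27, fell by 1.21 (adjusted p = 0.0120, 0.00739 and 0.0259, limma). SKP2 itself had a change of -0.815 that did not pass (adjusted p = 0.132, limma). The median change over these genes was -0.13.

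Among 28 measured transcription regulators of these genes, 2 rose, 1 fell and 25 did not pass. An unadjusted p under 0.05 (limma) was seen in 8 of the 28, 4 higher and 4 lower. MYC, which can repress CDKN1A and activate CCND2, fell by 2.705 (adjusted p = 0.00686). EGR1, an immediate early factor, rose by 1.605 and BCL6, a repressor with roles in lymphocytes and macrophages, rose by 1.54 (adjusted p = 0.0117 and 0.00898, limma). The median change of the 28 was 0.112. Whether any of these regulators had a part in the values of CDKN1A and CCND2 was not tested. Of 22 measured p53 targets other than CDKN1A, 0 rose, 1 fell and 21 did not pass in the limma fit, with 6 at an unadjusted p under 0.05. AEN, a p53-induced nuclease gene, fell by 1.185 (adjusted p = 0.0398, limma), and the median was 0.058. CDKN1A rose and 0 of the other measured p53 targets did, and a difference between them was not tested. The highest change among those targets was 0.77, and the smallest absolute change called over all genes was 0.925.

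Of 24 measured E2F targets of the G1/S transition, 0 rose, 1 fell and 23 did not pass, with 8 at an unadjusted p under 0.05. CDT1, a replication licensing gene, fell by 2.79 (adjusted p = 0.0120, limma). On average 20 of the 24 were lower and 16.7% higher, where 50.6% of all genes were higher. The median was -0.468. The groups did not overlap in 13, or 54.2%, against 48.2% of all genes in either direction. All 13 had MK-8776 lower, a separation seen in 24.2% of all genes. The E-type cyclin genes, also E2F targets, had changes of 0.235 and 1.265. Of 20 other cyclin genes, 1 rose, 4 fell and 15 did not pass. An unadjusted p under 0.05 (limma) was seen in 7 of the 20, 1 higher and 6 lower. The mitotic cyclin genes CCNB2 and CCNB1 had changes of -2.00 and -1.38, CCNA2, of S and G2 phase, fell by 1.78 (adjusted p = 0.0120, 0.0192 and 0.0168, limma) and CCNF is given above. CCNG2, named after its value was seen, encodes a cyclin linked to cell cycle exit and rose by 0.99 (adjusted p = 0.0439, limma). The MuvB core represses cell cycle genes as part of DREAM in resting cells and activates them with MYBL2 and FOXM1 in cycling cells. The list for these complexes held 9 measured genes, with the kinase genes DYRK1A and DYRK1B among them. It left out RBL1, RBL2, E2F4 and E2F5, counted in the core above, of which E2F5 fell and the others did not pass. In the list, the MuvB subunit gene LIN9 fell by 1.07 (adjusted p = 0.0332, limma), 0 rose and 8 did not pass, with 3 at an unadjusted p under 0.05.

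**Figure D4:**
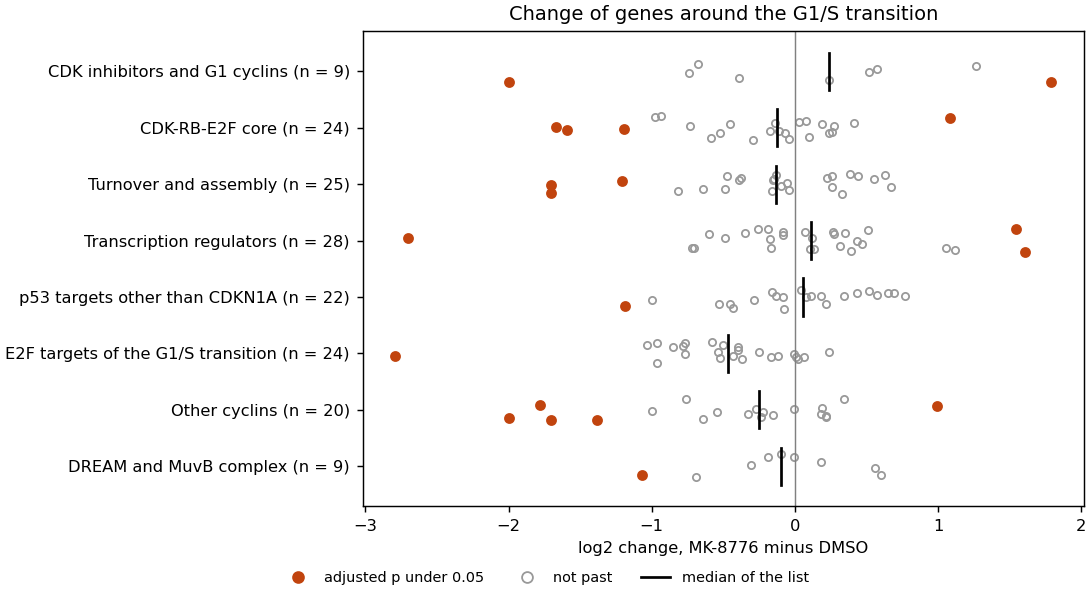
Log2 change, MK-8776 minus DMSO, of the 9 genes (top row) and of 7 lists of other genes around the G1/S transition, 1 point per gene, scattered vertically for legibility. Orange points passed the threshold and black bars mark list medians, the lowest at -0.468 for the E2F targets.

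Over the 7 lists, with each gene counted once, 4 of 149 measured genes rose and 13 fell, against 1.66% and 2.02% of all genes. At an unadjusted p under 0.05 (limma) there were 45 of the 149, against 18.8% of all genes. Markers of blood cell types were set beside these results. Of 4 measured monocyte and macrophage markers 2 rose, CD14 and C1QA, and their summed log2 level was 19.55 and 20.58 in DMSO and 23.74 and 23.75 in MK-8776, while FCGR3A stayed under the lower quartile. Of 6 promyelocyte markers 2 fell, PRTN3 and CTSG, with summed levels of 46.54 and 50.77 in DMSO and 41.19 and 43.09 in MK-8776. CD3E fell by 1.38 among 3 T cell markers and ITGA2B fell by 1.55 among 3 megakaryocyte markers (adjusted p = 0.0264 and 0.0120, limma). The summed levels ran from 17.47 to 18.08 in DMSO and 15.21 to 15.95 in MK-8776 for the T cell markers, and from 17.01 to 17.71 and 15.45 to 16.34 for the megakaryocyte markers. Of 3 B cell, 3 erythroid and 5 late neutrophil markers 0 passed in the limma fit, with 0, 1 and 1 at an unadjusted p under 0.05. The part of these shifts in the changes of CDKN1A and CCND1 was not tested.

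The 5 genes whose pattern over the 4 arrays was most like that of CDKN1A were CCL3, PPBP, EEPD1, ADGRE3 and PHLDA1. Likeness was the Euclidean distance between the array values after each gene was centred on its own mean, and ran from 0.306 for CCL3 to 0.375 for PHLDA1. Their changes lay between 1.69 and 1.885. Any gene with a change of like size and a small spread comes close on this measure.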

How the data were processed

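Total RNA of 4 samples was measured on Affymetrix arrays. The deposited values are log2 expression, 1 per feature and array, made by the authors with RMA (background correction, normalization between arrays, probe summary) on hg38, per the submitters' processing notes. For version, settings and filters the entry is: not given in the sources used here. The log2 scale was read from the range of values, 2.16 to 18.54. RMA aligns the distributions of the arrays, so changes are relative to other genes. There is no detection call, and the number of arrays limits the precision.

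Of 21448 features, the platform annotation gave 1 gene symbol to 17709, several to 0 and none to 3739, all matched to a RefSeq gene table (GRCh38.p14). For 20 genes with over 1 feature, the one with the highest mean was kept, leaving 17687 genes. These were fitted with limma 3.58.1 in R 4.3.3 (lmFit, eBayes, no filter, no block), with Benjamini-Hochberg adjustment over all of them. The fit was also run on data simulated from its own model, which cannot show how well that model suits these arrays. Arrays of 1 group are biological replicates per the labels, with no detail of separate cultures, so a p-value covers only the spread among these arrays, which may be technical.

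All 10 genes of the family were to be named, with up to 4 members past the threshold in each of 7 lists of other genes with the largest change, the 5 genes most like CDKN1A and CHEK1. The members and lists were chosen with earlier results of these data known. Over the lists, 3 genes stand in more than 1. Alternatives were quantile normalization, median centring, only genes above the median level, a variance that follows the level (plain or robust), a replicate block, all features, the mean of a gene's features, and leaving out each array.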

Additional observations from a re-analysis of the deposited data

How the results depend on the processing

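The rise of CDKN1A and the fall of CCND1 kept their direction and their call under quantile normalization, median centring, a variance trend (plain or robust), the replicate block, all features and the mean of a gene's features. Among genes above the median level 0 members rose, because CDKN1A, with a mean of 5.55 over the arrays, was not in that set. With a variance trend, with or without robust estimation, 2 members fell, CCND2 being the second. Leaving out each array left a group of 1, a fit that called 0 to 34 of all genes. It gave 0 risen and 0 fallen members each time, and for the pathway lists 0 risen and 0 to 1 fallen genes, while the change of CDKN1A stayed between 1.435 and 2.145 and that of CCND1 between -2.615 and -1.375. CDKN1B, not called, ranged from -0.89 without MK-8776 replicate 2 to 0.11, on the other side of 0, without MK-8776 replicate 1. The other members kept their sign in all fits run.

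The replicate numbers are common to the groups but no label links them to a shared culture or day. The deviations of same-numbered arrays correlated at 0.139 across genes, and with 2 pairs this does not show pairing. With the replicate block the calls over all genes went from 652 to 309 and those of the pathway lists from 4 to 2 risen and from 13 to 8 fallen, while 1 member rose and 1 fell as before. The calls over all genes were 1185 with a variance trend, 1162 with robust estimation and 981 among the 8841 genes above the median level. The cause of these shifts was not tested.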

Other observations

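The median SD of the 9 measured genes was 0.269 in DMSO and 0.396 in MK-8776, against 0.163 and 0.170 over all genes. Single genes differed: CCND2 had an SD of 0.05 in DMSO, which 82.4% of all genes exceeded, and CCNE1 one of 0.14 in MK-8776, which 56.2% exceeded. In DMSO, replicate 2 was above replicate 1 in 8 of the 9, with CCND3 the exception, and in MK-8776 in 6 of the 9. Over all genes the share was 48.8% in DMSO and 48.7% in MK-8776.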
